A study of Homo sapiens with 3 samples.

Results

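Chromosome 19 carries the largest group of zinc finger genes of the human genome, and the sites at which 2 tagged ribosomal proteins crosslinked to RNA were examined in these genes. The members were the protein-coding genes of the GRCh38 RefSeq table that lie on chromosome 19 and have a symbol made of ZNF and a number, with or without a letter after it. This gave 246 of 20050 protein-coding genes. Another 4 protein-coding entries whose symbol joins a ZNF name to a further term (read-through and divergent genes) were left out. The rule used names and position, and no measured value entered it.

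RNA was collected by GoldCLIP from HCT116, a long-established line of human colorectal carcinoma cells. In this method ultraviolet light ties RNA to protein and the HaloTag then holds the tagged protein covalently on beads. The series held 3 groups of 1 library each: cells expressing the HaloTag alone, RPL22-HaloTag or RPL22L1-HaloTag. RPL22 belongs to the proteins of the large subunit of the ribosome, and RPL22L1 is a paralog of it. The labels name no further allele or treatment in any group, and they give neither the promoter that drives a fusion nor whether the cells are 1 clone. The deposited peaks of RPL22-HaloTag and those of RPL22L1-HaloTag are called the RPL22 list and the RPL22L1 list. Cells with the HaloTag alone were not analysed here, and no level in that control stands beside any value. With 1 library per group there was no replicate check and no test between groups, and the intervals given are exact 95% intervals that cover counting error only. The number of reads behind each list is unknown.

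There were 154000 RPL22 peaks and 254413 RPL22L1 peaks. Colorectal epithelial markers held summits in both lists (EPCAM with 4 and 20, CDH1 with 18 and 18, KRT8 with 11 and 11, KRT18 with 3 and 5, CDX2 with 2 and 3, VIL1 with 3 and 9). The blood cell markers PTPRC, CD3E and HBB held 0 in both. Of 4 fibroblast markers, COL1A1 held 9 and 6 summits and COL1A2, PDGFRB and DCN held 0 in both. A summit is counted by its place within the bounds of a gene, without strand, and its absence cannot be told apart from a low level of RNA.

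C2H2 zinc finger proteins bind DNA through an array of fingers, each a short loop folded around a zinc ion. Many of those on chromosome 19 also carry a KRAB domain, which recruits the corepressor TRIM28 and through it the histone methyltransferase SETDB1, and they are known for the silencing of transposable elements. Their genes arose by tandem duplication and stand in clusters of like sequence, and the finger array is usually encoded by a single long last exon. Reads can therefore fit several members, and how reads with several matches were treated is not given in the sources used here.

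The sequences below show where peaks lay near the starts of members, the stretches of the members for which sequence was given. RefSeq start windows of GRCh38.p14 (250 bases before to 50 after a start, with several starts in some genes) were found for 216 of 246 members. In the RPL22 list 11 summits lay in these windows and in the RPL22L1 list 10, and none of these peaks met a peak of the other list. Of them 10 and 9 were flat, a term used here for peaks 30 bases wide with the summit offset at 15, the form without any shape. The first pair is shown because its peaks, both from the RPL22 list, held the longest run of bases common to 2 members among the 15 start peaks that lie wholly within a window. The capitals mark this run of 10 bases. The other sequences are the RPL22 start peak with a shape, for which the 30 bases about its summit are given, the RPL22L1 start peak of the same gene, the start peak of ZNF302 and the highest-scoring RPL22L1 start peak among those 15, that of ZNF17. All are written 5′ to 3′ on the strand of the gene named. Both ZNF565 peaks also lie within ZNF146, a gene of the opposite strand, and without strand in the lists they cannot be assigned to either gene.
ZNF808 (RPL22 list, chr19:52527687-52527716, plus strand): GTGGAGTGAAggtcacgtcgccatggtgag
ZNF83 (RPL22 list, chr19:52638312-52638341, minus strand): attatGTGGAGTGAAagttacaccgtggcg
ZNF565 (RPL22 list, chr19:36214855-36214884, minus strand): agtagtcctttagcgtcagatgacttcaag
ZNF565 (RPL22L1 list, chr19:36215188-36215217, minus strand): cccgagacgcccagatcccacctcctactt
ZNF302 (RPL22 list, chr19:34677477-34677506, plus strand): ccggctctaggtcgacggccccaggcggtt
ZNF17 (RPL22L1 list, chr19:57411021-57411050, plus strand): tcagaagcggggcaggcagtggcctgggaa

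The run GTGGAGTGAA, searched on both strands (TTCACTCCAC on the other), was present in 4 of 268 start windows of members, or 1.49%, and in 17 of 22199 start windows of all protein-coding genes, or 0.0766%. It began at base 20 after the start in ZNF808, ZNF83 and ZNF701 and at base 30 in ZNF525, which all belong to the same cluster of genes. The windows of ZNF808 and ZNF83 held 1 RPL22 summit each and 0 RPL22L1 summits, and those of ZNF701 and ZNF525 held 0 in both lists. The sequences without a peak are shown for comparison, with the same run in capitals.
ZNF701 (chr19:52570301-52570330, plus strand): atcccGTGGAGTGAAggtcgcaccgcggcg
ZNF525 (chr19:53365724-53365753, plus strand): agcagatcgcGTGGAGTGAAggtccctcag
The run was picked after the peaks were seen. It was taken from the ZNF808 and ZNF83 peaks, so the windows of these genes were bound to hold it. The contrast with all protein-coding genes was thus partly fixed in advance. Both peaks that hold the run had low scores, with ranks of 100612 (ZNF808) and 50483 (ZNF83) among the RPL22 peaks. Start windows of members held 14.6 RPL22 summits per 100 kb (7.27 to 26.1) and 13.2 RPL22L1 summits per 100 kb (6.35 to 24.3). The windows of all protein-coding genes held 22.5 (21.4 to 23.7) and 19.05 (17.97 to 20.2), so the intervals of the members reach both.

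Summits of the members as a whole were counted next. The 246 members spanned 7040 kb of chromosome 19 and held 688 RPL22 summits and 1094 RPL22L1 summits. This came to 9.77 RPL22 summits per 100 kb (9.06 to 10.5) and 15.5 RPL22L1 summits (14.6 to 16.5). Protein-coding genes as a whole held 10.3 and 17.2, values that rest largely on long genes. Among genes from 20 to 50 kb the members held 10.5 (9.52 to 11.6) and 18.98 (17.6 to 20.4), against 18.7 (18.5 to 18.95) and 32.3 (32.0 to 32.6) in all protein-coding genes. At 50 kb and over they held 4.71 (3.84 to 5.72) and 7.16 (6.08 to 8.38), against 8.19 (8.14 to 8.25) and 13.9 (13.8 to 13.99). Below 10 kb the RPL22 values were close, 23.8 (17.5 to 31.6) in members and 25.7 in all protein-coding genes. The RPL22L1 values there were 20.7 (14.9 to 28.1) and 37.3 (36.5 to 38.0). The other 1201 protein-coding genes of chromosome 19 held 19.5 (18.96 to 20.1) and 19.1 (18.6 to 19.7). The 264 ZNF genes of other chromosomes held 13.5 (12.8 to 14.1) and 23.1 (22.3 to 23.95). Over all lengths the members thus held fewer summits per length than both their neighbours on the chromosome and their relatives elsewhere, in each list. The neighbours were shorter, with a median length of 12.7 kb against 23.2 kb. Neighbours of 20 to 50 kb held 21.2 (20.3 to 22.2) RPL22 and 20.6 (19.7 to 21.6) RPL22L1 summits per 100 kb. In that class and from 10 to 20 kb the members lay below the neighbours in the RPL22 list, while the RPL22L1 intervals met. Below 10 kb the intervals met in both lists, and at 50 kb and over the members were lower in both.

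A summit lay in 155 members in the RPL22 list, or 63.0% (56.6 to 69.1%), against a background of 68.3% of all protein-coding genes. In the RPL22L1 list it lay in 158 members, or 64.2% (57.9 to 70.2%), against 69.8%. Both shares were close to those of all genes. ZNF genes of other chromosomes held a summit in 81.8% (76.6 to 86.3%) and 84.5% (79.5 to 88.6%) of cases. Of the members 140 held summits in both lists, 15 in the RPL22 list alone (6.10%, background 5.16%) and 18 in the RPL22L1 list alone (7.32%, background 6.64%). The remaining 73 held none, or 29.7% (24.04 to 35.8%), where the background was 25.0%. Members rich in summits were few: 15 held at least 10 in the RPL22 list, or 6.10%, where 23.8% of protein-coding genes did. In the RPL22L1 list 41 did, or 16.7%, against 32.5%. These backgrounds hold more long genes, with 6269 of 20050 at 50 kb and over against 24 of 246 members. From 20 to 50 kb members held a median of 1 RPL22 and 2 RPL22L1 summits, and all protein-coding genes 5 and 7. The 35 richest members held 50% of the RPL22 summits and the 29 richest held 50% of the RPL22L1 summits, when counts were summed gene by gene.

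**Figure D1:**
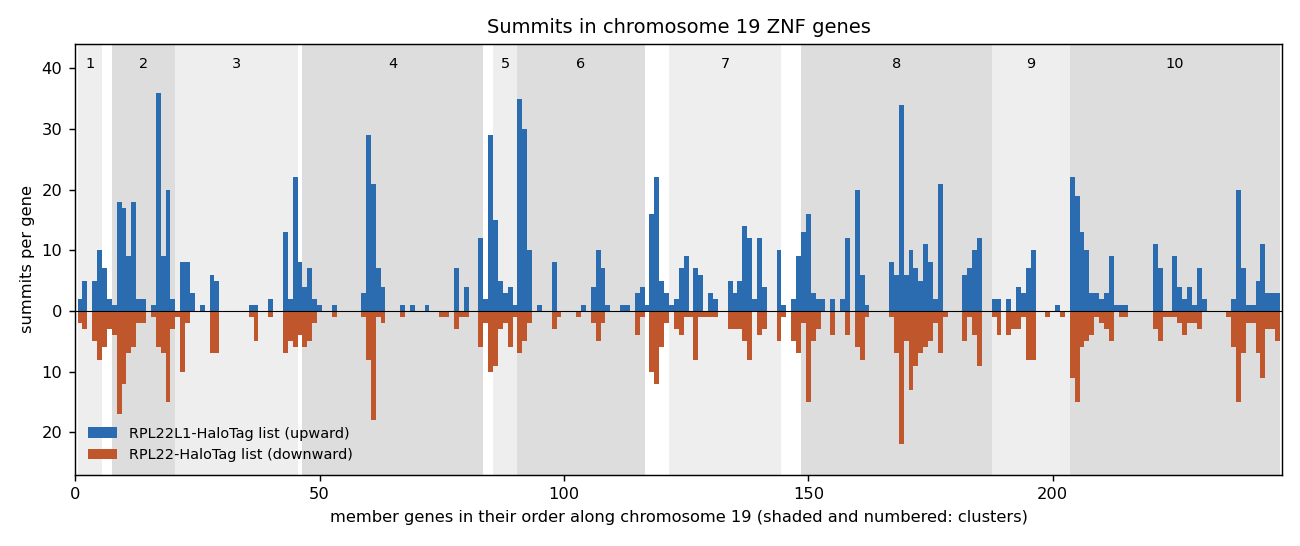
Summits per gene for the 246 members in their order along chromosome 19, with RPL22L1-HaloTag bars upward and RPL22-HaloTag bars downward and the 10 clusters shaded and numbered. Summits gather in short runs of neighbouring genes, up to 36 in ZNF121 in the RPL22L1 list and 22 in ZNF83 in the RPL22 list, with long stretches at 0 between them.

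Summit number did not follow gene length within the family. Across the 246 members Spearman's rho between summits and length was 0.03 for RPL22 summits and 0.08 for RPL22L1 summits, while across all protein-coding genes it was 0.57 and 0.55. Genes share libraries and are not independent replicates, so these are descriptions. In the share of genes with a summit, members fell below all protein-coding genes only with length. Of the 28 members shorter than 10 kb 67.9% (47.6 to 84.1%) held a summit in either list, against 39.5% and 42.02% of all protein-coding genes of that length in the RPL22 and the RPL22L1 list. Of the 123 members from 20 to 50 kb 62.6% (53.4 to 71.2%) held an RPL22 summit and 63.4% (54.3 to 71.9%) an RPL22L1 summit, against 78.6% and 80.2%. Of the 24 members of 50 kb and over 54.2% (32.8 to 74.4%) and 58.3% (36.6 to 77.9%) did, against 87.5% and 88.8%. ZNF genes of other chromosomes of that length reached 92.6% (83.7 to 97.6%) and 94.1% (85.6 to 98.4%).

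**Figure D2:**
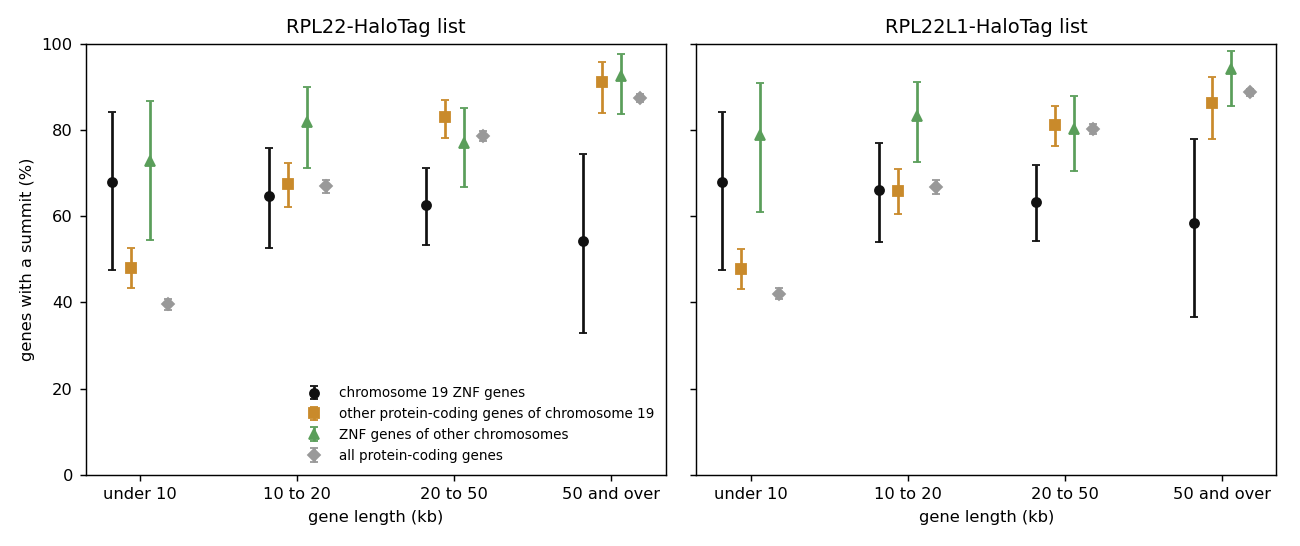
Share of genes with at least 1 summit by gene length (kb) for the members and 3 groups of other genes, with the RPL22-HaloTag list on the left and the RPL22L1-HaloTag list on the right. Bars are exact 95% intervals; the share of members stays between 54.2% and 67.9% over the length classes, while that of all protein-coding genes climbs from 39.5% to 87.5% in the RPL22 list and from 42.02% to 88.8% in the RPL22L1 list.

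The longest members without a summit in either list were ZNF676 (81.2 kb), ZNF331 (77.0 kb), ZNF730 (72.0 kb), ZNF208 (71.1 kb) and ZNF578 (63.3 kb). ZNF331 is an imprinted gene. ZNF676, ZNF730 and ZNF208 lie together in the cluster from 19.67 to 24.13 Mb, and ZNF331 and ZNF578 in that from 51.57 to 53.58 Mb. In all, 8 of 24 members of 50 kb and over were without a summit, or 33.3% (15.6 to 55.3%), against 7.11% of protein-coding genes of that length.

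Members were grouped into clusters wherever neighbouring members stood no more than 500 kb apart. This gave 10 clusters of at least 5 members, numbered from the short-arm end, which held 232 members, while 14 stood elsewhere. Density differed several-fold between clusters, and so did gene length. Median length was 16.9, 23.0, 21.7, 34.6 and 11.1 kb in clusters 1 to 5. In clusters 6 to 10 it was 31.9, 18.7, 26.3, 11.2 and 13.1 kb. Summit number did not follow length in members, and clusters were not compared at equal gene length. Cluster 2 (8.51 to 9.79 Mb, ZNF414 to ZNF846, 13 members) had the highest value in both lists, with 25.0 RPL22 summits per 100 kb (19.9 to 31.0) and 41.1 RPL22L1 summits (34.5 to 48.7), and 12 of its 13 members held a summit in each. Cluster 1 (2.82 to 2.94 Mb, 5 members) held 22.1 (13.1 to 35.0) and 27.1 (16.96 to 40.98). Cluster 5 (34.68 to 34.96 Mb, 5 members) held 20.9 (12.96 to 32.0) and 27.9 (18.6 to 40.4). Cluster 10 (57.19 to 58.49 Mb, ZNF264 to ZNF446, 43 members) held 20.1 (16.9 to 23.8) and 27.5 (23.7 to 31.7). The intervals of clusters 1, 2, 5 and 10 overlap in the RPL22 list, so these cannot be ordered. In the RPL22L1 list that of cluster 2 meets those of clusters 1 and 5 and lies above that of cluster 10. ZNF121 alone held 36 of the 135 RPL22L1 summits of cluster 2, and the separation from cluster 10 was not examined without it.

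Clusters 4 and 6 were the sparsest in both lists. Cluster 4 (19.67 to 24.13 Mb, ZNF101 to ZNF254, 37 members) held 3.82 RPL22 summits per 100 kb (2.90 to 4.94) and 6.92 RPL22L1 summits (5.66 to 8.38), and 18 of its members held none in either list. Cluster 6 (36.18 to 37.78 Mb, ZNF565 to ZNF573, 26 members) held 2.69 (1.79 to 3.89) and 8.26 (6.60 to 10.2), with 10 silent members. Next came cluster 3 among RPL22 summits and cluster 9 among RPL22L1 summits. Cluster 3 (11.48 to 12.63 Mb, ZNF653 to ZNF791, 25 members) held 7.65 (5.58 to 10.2) and 11.4 (8.82 to 14.5), with 12 silent members. Cluster 7 (43.53 to 44.50 Mb, 23 members) held 12.4 (9.36 to 16.2) and 23.5 (19.2 to 28.5). Cluster 8 (51.57 to 53.58 Mb, 39 members) held 11.8 (9.92 to 13.9) and 18.5 (16.2 to 21.1). Cluster 9 (55.48 to 56.67 Mb, ZNF628 to ZNF835, 16 members) held 13.02 (8.96 to 18.3) and 11.05 (7.34 to 15.96). With flat peaks left out the densest RPL22 cluster became cluster 5 and the sparsest RPL22L1 cluster became cluster 9.

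The members richest in RPL22 summits were ZNF83 with 22, ZNF431 with 18, ZNF558 with 17, and ZNF562, ZNF577, ZNF544 and ZNF805 with 15 each. The RPL22L1 list held 34, 21, 18, 20, 16, 20 and 19 summits in these 7 genes. The richest in that list were ZNF121 with 36, ZNF565 with 35, ZNF83 with 34, ZNF146 with 30, and ZNF507 and ZNF714 with 29 each. The RPL22 list held 6, 7, 22, 5, 10 and 8 summits in these. ZNF83 was the only gene in both rankings, and 1 of its 22 RPL22 peaks overlapped an RPL22L1 peak. ZNF146, which encodes a protein made almost wholly of fingers, lies inside ZNF565 on the opposite strand. The lists give no strand, so the 5 RPL22 and 30 RPL22L1 summits of ZNF146 are counted in both genes and cannot be assigned to either.

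By length, ZNF302 (10.4 kb, chromosome 19, 34675979 to 34686396) was the densest member of the RPL22 list among those with at least 5 summits, with 0.864 summits per kb, and it held 1.44 per kb in the RPL22L1 list. ZNF77 (0.681 and 0.851), ZNF805 (0.679 and 0.860), ZNF551 (0.577 and 0.807) and ZNF780A (0.551 and 1.01) followed. In the RPL22L1 list ZNF121 came first with 1.49 summits per kb, against 0.248 in the RPL22 list. After ZNF302 came ZNF146 (1.25), ZNF211 (1.01) and ZNF780A (1.01). ZNF780A was also the member in which the lists met most often, with 6 of its 12 RPL22 peaks overlapping 6 of its 22 RPL22L1 peaks. ZNF558 followed with 4 of 17 and 4 of 18.

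Numbers in the lists were then compared within genes. The members held 1.59 RPL22L1 summits for each RPL22 summit (1.44 to 1.75), near the ratio of 1.65 of the whole lists. The other protein-coding genes of chromosome 19 held 0.980 (0.941 to 1.02), with 4809 RPL22 and 4714 RPL22L1 summits. ZNF genes of other chromosomes held 1.72 (1.62 to 1.82). The members therefore stood apart from their neighbours on the chromosome, with intervals that do not meet. Without flat peaks the ratio was 1.05 (0.866 to 1.28) in members, 0.465 (0.429 to 0.502) in the other genes of chromosome 19 and 1.04 in the whole lists.

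**Figure D3:**
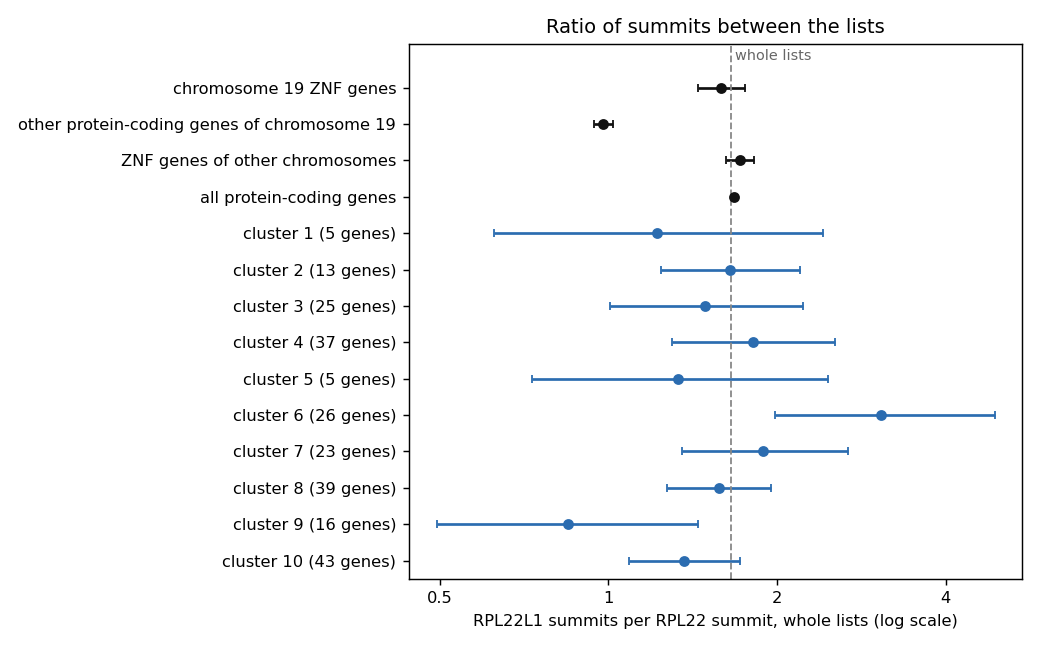
RPL22L1 summits per RPL22 summit in whole lists (log scale) for 4 groups of genes (black) and the 10 clusters of members (blue), with exact 95% intervals from the share of RPL22L1 summits and the ratio of the whole lists as a dashed line. The members lie at 1.59 and the other protein-coding genes of chromosome 19 at 0.980, cluster 6 at 3.07 and cluster 9 at 0.848.

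For single genes the RPL22L1 list was reduced to the 149971 peaks with a score of at least 99, the whole-number score that brings it nearest to the size of the RPL22 list. A gene was called when the log2 ratio of summit number plus 1, RPL22L1 over RPL22, passed 1 in size, over genes whose summits in both lists together came to 10 or more. Of 57 members with that many summits, 4 were above 1 (7.02%, background 5.83%) and 0 were below -1 (background 9.66%). The 4 include ZNF565 and ZNF146, which lies within it, so the summits of ZNF146 count in both calls. The median log2 ratio was 0.00 in members and 0.00 in all protein-coding genes. Among 310 other protein-coding genes of chromosome 19 it was -0.68, with 1 above 1 and 94 below -1, or 30.3%. Of 123 ZNF genes of other chromosomes 8 were above and 13 below. The number of members below -1 depended on the settings, with 8 of 101 when at least 5 summits were asked for (background 12.7%) and 3 of 28 when peaks below the median score of each list were dropped (background 7.44%).

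Among the 57 members with at least 10 summits, those with the largest log2 ratios towards RPL22L1 were ZNF175 (2 RPL22 and 9 RPL22L1 summits, 1.74), ZNF121 (6 and 18, 1.44), ZNF146 (5 and 13, 1.22), ZNF565 (7 and 17, 1.17) and ZNF567 (3 and 7, exactly 1 and so not called). In ZNF121 (chromosome 19, 9560329 to 9584504, minus strand) 22 of the 36 RPL22L1 peaks of the whole list had a shape, and 22 of the 36 summits lay in the last 30% of the gene. The 6 RPL22 peaks of ZNF121 overlapped none of them. The largest ratios towards RPL22 among these 57 were exactly -1 in ZNF561 (7 and 3), ZNF701 (7 and 3) and ZNF468 (7 and 3), followed by ZNF480 (8 and 4, -0.85) and ZNF600 (13 and 7, -0.81). ZNF701, ZNF468, ZNF480 and ZNF600 belong to cluster 8. When peaks below the median score were dropped the log2 ratio was 0.00 for ZNF565 and ZNF146, 1.17 for ZNF121 and 2.32 for ZNF175. With flat peaks left out ZNF146 stood at exactly 1.

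Among clusters, cluster 6 held 28 RPL22 and 86 RPL22L1 summits, a ratio of 3.07 (1.98 to 4.89). Without ZNF565 and ZNF146 it was 2.43 (1.44 to 4.25), whose interval includes the ratio of the whole lists. Cluster 9 held 33 and 28, a ratio of 0.848 (0.494 to 1.45), and of its peaks 12 RPL22 and 1 RPL22L1 had a shape. The other 8 clusters lay between 1.22 and 1.89.

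The form of the peaks was compared with that of other genes. Of the peaks with a summit in a member 70.3% (66.8 to 73.7%) were flat among RPL22 peaks and 80.3% (77.9 to 82.7%) among RPL22L1 peaks. In all protein-coding genes 61.5% (61.2 to 61.8%) and 76.4% (76.2 to 76.5%) were. The other protein-coding genes of chromosome 19 had 58.3% (56.9 to 59.7%) of RPL22 peaks and 80.2% (79.1 to 81.4%) of RPL22L1 peaks flat. Peaks with a shape numbered 204 and 215 in members, or 2.90 and 3.05 per 100 kb. Members resembled ZNF genes of other chromosomes in the share of flat peaks, 69.1% and 78.4% there.

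Overlap between lists, meaning at least 1 shared base, was low in members. Of the RPL22 peaks 83 overlapped an RPL22L1 peak, or 12.1% (9.72 to 14.7%), against 19.1% (18.8 to 19.3%) in all protein-coding genes and 14.7% (13.7 to 15.8%) in the other genes of chromosome 19. Of the RPL22L1 peaks 83 overlapped, or 7.59% (6.09 to 9.32%), against 11.4% (11.3 to 11.6%) and 15.1% (14.1 to 16.2%). Among peaks with a shape the shares in members were 26.0% (20.1 to 32.6%) and 16.3% (11.6 to 21.9%), while those of all protein-coding genes were 39.7% and 26.5%. Among flat peaks the members and all protein-coding genes were near each other, with 6.20% (4.22 to 8.73%) and 6.12% of RPL22 peaks and 5.46% (4.05 to 7.18%) and 6.80% of RPL22L1 peaks. The other genes of chromosome 19 differed from the members in other classes. Their peaks with a shape overlapped in 27.8% (25.9 to 29.8%) of RPL22 peaks, level with the members, and in 31.7% (28.7 to 34.7%) of RPL22L1 peaks, above the members. Their flat peaks overlapped in 5.35% (4.55 to 6.25%) and 11.03% (10.04 to 12.1%), the second above the members. In ZNF genes of other chromosomes 15.9% (14.3 to 17.7%) of RPL22 peaks and 9.34% (8.35 to 10.4%) of RPL22L1 peaks overlapped, with intervals that meet those of the members.

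The 83 overlapping pairs lay in 52 members when each pair was given to 1 gene. A median of 28 bases was shared, and the summits stood a median of 9 bases apart, with 45 pairs within 10 bases. Both peaks were flat in 22 pairs and both had a shape in 27. Identical bounds were found in 4 pairs, in ZNF773, ZNF610, ZNF761 and ZNF551. Across the 140 members with summits in both lists, Spearman's rho of the summit numbers was 0.66.

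Along the gene, summits of members leaned towards the end. Strand was known for 216 members, and each was divided into 10 equal stretches from its start. The last 3 held 42.9% (39.01 to 46.9%) of the 634 RPL22 summits and 48.7% (45.6 to 51.8%) of the 1043 RPL22L1 summits. Here a summit within overlapping genes was counted in each of them, and the intervals treat these counts as separate. In all protein-coding genes they held 36.6% (36.3 to 36.8%) and 38.6% (38.4 to 38.8%), and in ZNF genes of other chromosomes 31.2% (28.9 to 33.5%) and 35.4% (33.6 to 37.2%). The other protein-coding genes of chromosome 19 held 40.5% (38.96 to 41.97%) and 40.6% (39.1 to 42.1%), so in the RPL22 list the members did not stand apart from them. Among peaks with a shape the last 3 stretches of members held 50.8% (43.5 to 58.1%) and 58.7% (51.9 to 65.3%), against 41.7% and 44.8% in all protein-coding genes. The other genes of chromosome 19 held 45.3% (42.96 to 47.7%) and 49.9% (46.4 to 53.4%) there, and both intervals meet those of the members. The first stretch held 11.5% of RPL22 summits and 6.999% of RPL22L1 summits in members. Exons were not used here, so a place in the finger array cannot be given.

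**Figure D4:**
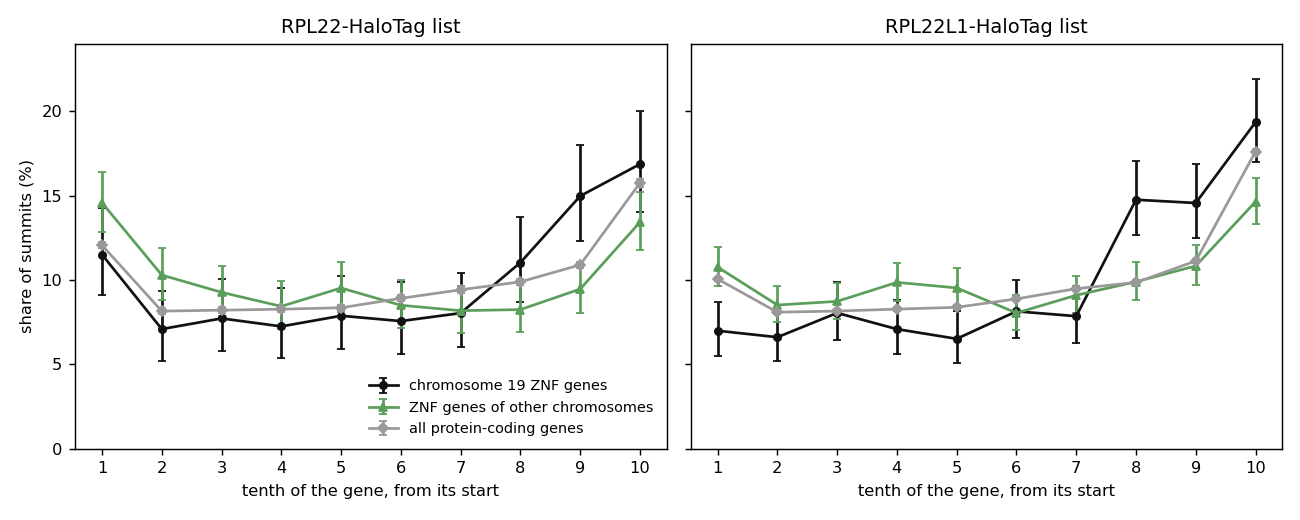
Share of summits in each of 10 equal stretches of the gene from its start, in percent with exact 95% intervals, for 216 members, ZNF genes of other chromosomes and all protein-coding genes, with the RPL22-HaloTag list on the left and the RPL22L1-HaloTag list on the right. In members the last stretch holds 16.9% and 19.4%, the highest share in each list. A summit within overlapping genes is counted in each of them.

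The named members differed in this. In ZNF431 11 of 18 RPL22 and 17 of 21 RPL22L1 summits lay in the last 30% of the gene, and in ZNF77 7 of 8 and 8 of 10. In ZNF714 these were 6 of 8 and 18 of 29. ZNF83 had 2 of 22 and 14 of 34 there, ZNF577 1 of 15 and 3 of 16, and ZNF562 3 of 15 and 6 of 20.

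Scores were used to rank peaks within each list. Of the member peaks 24 RPL22 peaks, or 3.49% (2.25 to 5.15%), and 28 RPL22L1 peaks, or 2.56% (1.71 to 3.68%), were among the 10000 highest of their list. For all protein-coding genes these shares were 6.91% (6.77 to 7.05%) and 4.09% (4.003 to 4.17%). In ZNF genes of other chromosomes they were 3.76% (2.93 to 4.73%) and 2.98% (2.41 to 3.63%). At this cut high peaks were thus less frequent in members than in protein-coding genes at large, and about as frequent as in ZNF genes elsewhere. Among the 1000 highest were 0.436% (0.0900 to 1.27%) of RPL22 and 0.366% (0.0997 to 0.933%) of RPL22L1 member peaks. The shares were 0.453% and 0.263% in all protein-coding genes and 0.327% (0.120 to 0.710%) and 0.0633% (0.00767 to 0.229%) in ZNF genes elsewhere. At that cut the members did not stand apart from either group.

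The highest member peak was in ZNF773 (chromosome 19, 57499938 to 57518437, plus strand, cluster 10). Both lists had a peak at the same 30 bases, 57513035 to 57513064, with summits 1 base apart, at 70.8% of the way along the gene. Its rank was 5 in the RPL22 list, with a score of 1395972, and 3 in the RPL22L1 list, with a score of 5210944. It was the sole peak of ZNF773 in both lists. ZNF773 was the shortest annotated gene over its summit. Its bases are not printed, since no genome sequence was used here.

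The next peaks were also nearly alone in their genes. ZNF610 held 1 peak in each list, at identical bases (52331901 to 52331930), with ranks of 277 (RPL22) and 124 (RPL22L1). ZNF90 held 1 in each, at 20080553 to 20080587 with rank 279 and at 20080550 to 20080588 with rank 338, or 5.95% of the way along the gene. ZNF536, known as a repressor of neuronal differentiation and at 488 kb the longest member, held 2 in each list. Its highest RPL22L1 peak (30313237 to 30313266) had rank 40, the next rank 97918, and the nearest RPL22 peak was 5412 bases away. Its highest RPL22 peak had rank 17355.

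Below these 4 genes the ranks fell off. ZNF480 (rank 1691) and ZNF57 (rank 2016) came next in the RPL22 list. The RPL22 peak of ZNF480 overlapped an RPL22L1 peak of rank 113974, and that of ZNF57 overlapped none, with the nearest 518 bases away. In the RPL22L1 list the next was the peak within both ZNF565 and ZNF146 (36228748 to 36228813, rank 1966), whose summit also lies in the long non-coding RNA gene LOC107985304, and which overlapped an RPL22 peak.

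**Figure D5:**
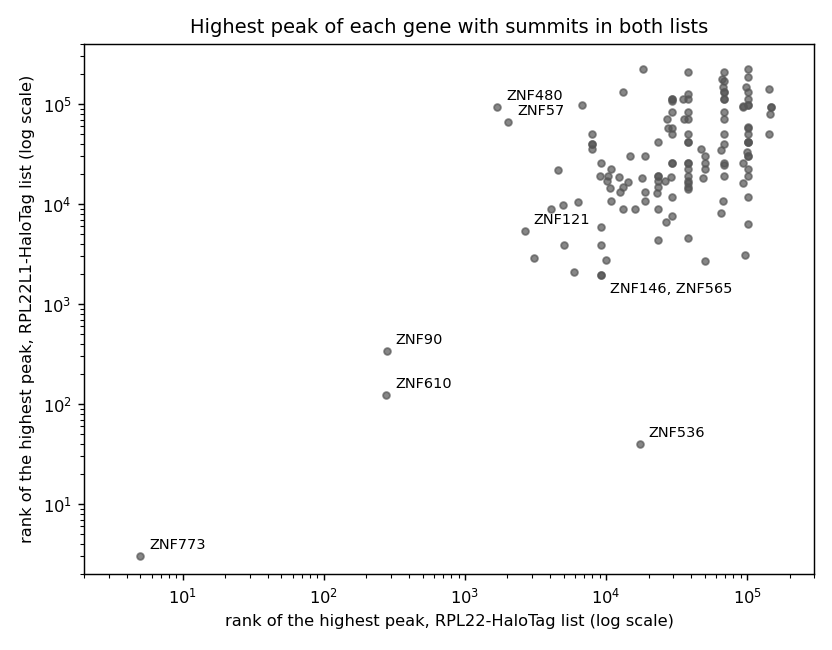
Rank of the highest peak in the RPL22-HaloTag list (x axis) and in the RPL22L1-HaloTag list (y axis), both on log scales, for each of the 140 members with summits in both; rank 1 is the highest score. ZNF773, ZNF610 and ZNF90 lie in the low corner, ZNF536 is high in the RPL22L1 list alone, and the other members spread beyond rank 1000 in both lists.

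Genes that work with KRAB zinc finger proteins were described from a list of 20 corepressor and heterochromatin genes. A summit lay in 19 of the 20 in each list, with DAXX at 0 in both, against the backgrounds of 68.3% and 69.8% given above. Most of these genes span over 20 kb, and backgrounds are higher there. They were 78.6% and 80.2% from 20 to 50 kb, and 87.5% and 88.8% at 50 kb and over. The median was 12.5 RPL22 and 27 RPL22L1 summits per gene. TRIM28, the corepressor bound by KRAB domains, lies on chromosome 19 beyond cluster 10 and held 8 and 12 summits in 6.65 kb, with best ranks of 1041 and 8813. SETDB1, the histone H3 lysine 9 methyltransferase, held 4 and 27. CBX5, which binds the methylated histone, held 6 and 27, and DNMT1, the maintenance DNA methyltransferase, 18 and 34. These counts are from whole lists. In the lists of near-equal size, of 19 with at least 10 summits 3 were above a log2 ratio of 1 (background 5.83%) and 0 below -1 (background 9.66%). The 3 were SETDB1 (4 and 14 summits, 1.58), CBX3 (2 and 10, 1.87) and RBBP4 (5 and 18, 1.66), and CBX5 stood at exactly 1 (6 and 13). Summits per 100 kb were 24.1 and 55.3 in these genes, against 9.77 and 15.5 in the zinc finger members. All protein-coding genes from 20 to 50 kb held 18.7 and 32.3, and those of 50 kb and over 8.19 and 13.9.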

How the data were processed

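GoldCLIP peaks of 2 libraries were used (RPL22-HaloTag; RPL22L1-HaloTag), named by the labelled genotype. Per the submitters' processing notes, cutadapt 4.8, STAR 2.7.10a, UMI-tools 1.1.5, MACS3 3.0.0a6 and build hg38 were used, and the role of each, the control and the limits for calling are not given in the sources used here. The deposited lists have 10 columns without header or strand. The authors' score per peak is a whole number, probably −log10 of a q-value, multiplied by 10, which is inferred from the peak names and the lowest value. Scores ranked peaks within a list and were not compared between lists, and the lists were treated as called per library.

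Summits (column 2 plus column 10 plus 1) were counted within gene bounds of the RefSeq table of GRCh38.p14, and each summit once in totals over a group of genes. Exceptions were the positions along the gene and the share held by the richest members, where a summit counted once for each gene that holds it. Intervals are Clopper-Pearson for shares and exact Poisson for densities, at 95%. No test between groups was run. Genes named were ZNF773, and in each list the 5 members leading by peak score, by summits and by summits per kb (at least 5 summits), the 5 largest log2 ratios each way and the 5 longest members without a summit. Ties were all named. ZNF808, ZNF701, ZNF525, ZNF17, ZNF761, CBX3 and RBBP4 were named after their values were seen. The result of 1 listed blood cell marker is not reported here. The members and lists were chosen with earlier results of these data known. The code was checked on 1427 simulated peaks in 246 genes, with 0 differences from a direct search. Versions were 3.11.15 for Python, 1.17.1 for scipy, 2.4.6 for numpy, 3.10.9 for matplotlib and 2.3.3 for pandas.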

Additional observations from a re-analysis of the deposited data

How the results depend on the processing

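With flat peaks left out, members with a summit came to 37.8% (RPL22) and 30.1% (RPL22L1), summits per 100 kb to 2.90 and 3.05, and the overlapping share of RPL22L1 peaks to 12.6%. Dropping peaks below the median score gave 47.97% and 54.5% of members, 5.24 and 7.81 summits per 100 kb, and flat shares of 51.2% and 69.8%. Lists of near-equal size gave 57.3% of members, 9.40 summits per 100 kb and a flat share of 72.7% in the RPL22L1 list, and an overlapping share of 8.58% in the RPL22 list. At least 3 summits were held by 39.4% and 43.1% of members. The matching shares of all protein-coding genes were not computed for these shares of members. Whether members stay close to all genes under these settings is therefore unknown. Summits for which a member was the shortest gene gave 8.82 and 14.2 per 100 kb. Asking for 50% of each peak to be shared gave 6.83% and 4.30%, and summits within 10 bases 6.54% and 4.11%. Members past a log2 ratio of 1 towards RPL22L1 and towards RPL22 are given next, with the shares of all protein-coding genes in parentheses. They numbered 5 and 1 of 13 without flat peaks (13.1% and 8.31%). Without peaks below the median score they were 1 and 3 of 28 (5.18% and 7.44%). Whole lists gave 20 and 0 of 74 (30.6% and 2.5%), where all protein-coding genes had a median of 0.65. At least 5 summits gave 9 and 8 of 101 (6.58% and 12.7%), and no minimum 11 and 11 of 246 (4.76% and 9.48%). Some settings left out peaks and others changed the criterion on the same peaks. The cause of the shifts in shares was not tested. The ranks of the ZNF773 peak stayed at 5 and 3 without flat peaks, and a gap of 1 Mb gave 9 clusters. The ratios without ZNF121, ZNF565 and ZNF146 (1.52 for all members) and the ratios and positions without flat peaks were chosen after seeing the data. Depth is unknown, so the absence of a summit is no absence of binding. No paired analysis was possible because each group has 1 library.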
